A study of Mus musculus with 10 samples.

Results

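Broad H3K27me3 domains are the called regions of 20 kb or more on the 19 autosomes of mouse bone marrow-derived macrophages. H3K27me3, histone H3 trimethylated at lysine 27, was measured by chromatin immunoprecipitation and sequencing, and the authors called regions in each library separately. Of the 328681 autosomal regions in the 10 libraries, 21884 reached 20 kb and 306797 were shorter. They were chosen by the length the caller gave them, so their lengths and counts are given as descriptions. The smallest domain kept was 20000 to 20021 bp in the 10 libraries, and the largest region left out was 19989 to 19999 bp. Per library, 164 to 319 domains lay between 20 and 22 kb and 213 to 404 regions between 18 and 20 kb. Their normalized tags per kb were close, at 18.8 to 47.6 just inside the limit and 18.4 to 50.1 just outside it.

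H3K27me3 is deposited by Polycomb repressive complex 2, whose catalytic subunit is EZH2 or EZH1, and can be bound by Polycomb repressive complex 1 through its CBX proteins. The mark is found over silent genes, and long stretches of it are known from the Hox clusters and other genes of embryonic development that a differentiated cell does not use. Macrophages also carry it over some genes of immune activation, where it can be lost when the gene is induced.

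Knockout (KO) cells had the genotype Eif2ak3 fl/fl x LysMcre, and wild type (WT) cells were Eif2ak3 fl/fl, so both carried the floxed gene of the stress kinase PERK. LysMcre is Cre recombinase driven from the lysozyme M locus of myeloid cells. All cells were of strain C57BL/6, and marrow was cultured for 7 days with 20 ng/ml M-CSF. M2 cells then received 20 ng/ml IL-4 for 24 h, M1 cells received 20 ng/ml LPS with 50 ng/ml IFNg for 24 h, and M0 cells were left unstimulated. M2 and M1 had 2 libraries per genotype, described by the submitters as biological replicates, and M0 had 1 per genotype. The sources used here give neither age nor sex of the mice.

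Libraries held 12.6 to 20.9 megatags, of which 41.3% to 64.1% lay in called regions. The calling threshold was 20 to 27 tags per window of 1000 bp, or 12.9 to 15.9 tags at a depth of 10 megatags. The M0 libraries had an estimated fragment length of 372 bp (KO) and 352 bp (WT). In the 8 stimulated libraries it was 178 to 190 bp, and for M0 the state and the library preparation therefore cannot be told apart. WT M2 replicate 1 stood apart, with 41.3% of tags in regions and the smallest number of broad domains of the stimulated libraries. It and WT M1 replicate 1 also had 544 and 216 broad domains on the X chromosome, against 1 to 4 in the other 8 libraries, and results are given without them where that matters. Of 10 macrophage markers, none was at least 50% inside a broad domain in any library, and the body of Eif2ak3 itself had 0% of its length inside broad domains in all 10 libraries. Cover by a histone mark is no check of a deletion, and each genotype is as labelled.

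The start sites of genes inside the domains that all libraries shared ranged from very rich to poor in CG dinucleotides. The promoters below run from 250 bases before to 50 after the start site (RefSeq, build GRCm38.p6, the same build as the mm10 of the region files), and capitals mark each CG. Lhx1 and Neurog1 are CG-rich and lay in 2 of the 10 longest shared loci. Sox8 and Prss34 lie in one and the same domain, and Ifna9 stands for a cluster that was broad in M1 and not in M0. Lhx1 lies at chr11:84525485-84525784 on the minus strand, Neurog1 at chr13:56252131-56252430 on the minus strand, and Sox8 at chr17:25570637-25570936 on the minus strand. Prss34 lies at chr17:25298144-25298443 on the plus strand and Ifna9 at chr4:88592336-88592635 on the minus strand.
Lhx1: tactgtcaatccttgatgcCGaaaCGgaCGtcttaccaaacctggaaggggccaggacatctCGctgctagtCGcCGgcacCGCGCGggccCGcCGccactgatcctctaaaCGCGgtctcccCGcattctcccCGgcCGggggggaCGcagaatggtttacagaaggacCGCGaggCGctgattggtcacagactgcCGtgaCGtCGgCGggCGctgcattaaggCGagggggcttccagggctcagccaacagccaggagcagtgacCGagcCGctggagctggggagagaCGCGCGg
Neurog1: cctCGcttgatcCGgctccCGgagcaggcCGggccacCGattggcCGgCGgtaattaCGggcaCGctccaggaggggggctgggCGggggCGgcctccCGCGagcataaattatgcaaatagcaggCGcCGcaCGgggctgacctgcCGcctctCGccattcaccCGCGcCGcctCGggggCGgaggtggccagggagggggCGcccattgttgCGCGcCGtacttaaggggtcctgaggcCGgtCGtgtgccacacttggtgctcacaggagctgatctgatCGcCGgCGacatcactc
Sox8: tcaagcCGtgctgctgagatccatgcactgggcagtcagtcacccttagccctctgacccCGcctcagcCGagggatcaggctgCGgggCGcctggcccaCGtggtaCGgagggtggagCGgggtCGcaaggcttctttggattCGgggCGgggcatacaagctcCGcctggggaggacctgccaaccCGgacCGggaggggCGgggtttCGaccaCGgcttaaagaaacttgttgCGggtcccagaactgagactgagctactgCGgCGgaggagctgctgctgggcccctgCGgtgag
Prss34: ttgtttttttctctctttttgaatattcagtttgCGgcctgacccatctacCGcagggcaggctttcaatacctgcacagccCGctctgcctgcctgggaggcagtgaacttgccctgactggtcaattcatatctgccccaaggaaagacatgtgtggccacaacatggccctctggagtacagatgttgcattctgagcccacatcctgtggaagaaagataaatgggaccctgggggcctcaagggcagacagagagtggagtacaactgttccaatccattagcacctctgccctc
Ifna9: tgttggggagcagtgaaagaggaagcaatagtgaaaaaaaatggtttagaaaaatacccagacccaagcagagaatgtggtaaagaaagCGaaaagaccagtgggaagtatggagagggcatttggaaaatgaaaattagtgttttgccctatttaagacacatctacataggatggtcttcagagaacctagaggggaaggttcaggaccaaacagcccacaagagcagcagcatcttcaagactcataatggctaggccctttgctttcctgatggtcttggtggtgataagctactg
These windows held 31 CG in Lhx1, 32 in Neurog1, 21 in Sox8, 3 in Prss34 and 1 in Ifna9. The start sites of the first 4 lay in a broad domain in all 10 libraries. The start site of Ifna9 lay in a called region in 10 libraries and in a broad one in 5.

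Over the whole set, 643 promoters had their start site in a broad domain of all 10 libraries, with a median of 17 CG (quartiles 7 and 26.5). Of these, 44.9% had 20 CG or more and 19.6% had 5 or fewer. All 20085 protein-coding promoters had a median of 14 CG, with 37.1% at 20 or more and 31.4% at 5 or fewer. The 1537 promoters that were called in all 10 libraries but never in a broad domain had a median of 18 CG, against the 17 of the shared broad domains. The 2007 promoters that were broad in 1 to 9 libraries had a median of 10 CG. CG reads the same on both strands, and the counts are a description with no test.

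The domains of all libraries also held microRNA genes. Of 919 autosomal hairpins, 31 (3.37%) lay in broad domains of all 10 libraries and 107 in at least 1, with 51 to 83 per library. The mature sequences below (RefSeq, GRCm38.p6) are 4 of those encoded inside shared domains, shown because 3 come from Hox clusters, 2 of them with a common seed, and 1 from separate loci outside them. Capitals mark the seed, bases 2 to 8.
miR-196a-5p: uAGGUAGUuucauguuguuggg
miR-196b-5p: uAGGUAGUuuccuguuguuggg
miR-9-5p: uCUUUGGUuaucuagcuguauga
miR-10b-5p: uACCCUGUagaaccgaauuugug
miR-196a-5p is encoded by Mir196a-1 on chromosome 11 and Mir196a-2 on chromosome 15, and miR-196b-5p, which has the same seed, by Mir196b on chromosome 6. These genes lie in the Hoxb, Hoxc and Hoxa clusters, and Mir10b in the Hoxd cluster on chromosome 2. The neuronal miR-9-5p came from Mir9-1 on chromosome 3 and Mir9-3 on chromosome 7. All copies named here were inside a broad domain in 10 of 10 libraries.

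The first question was how many broad domains each state and genotype had. KO M2 libraries had 2578 and 2165 broad domains and WT M2 libraries 1708 and 2741. KO M1 libraries had 2404 and 2630, and WT M1 libraries 2242 and 2583. KO M0 had 1495 and WT M0 had 1338. The M0 libraries were thus the lowest, while KO and WT overlapped within M2 and within M1, and WT M2 held both the lowest and the highest stimulated library. Broad domains made up 4.10% to 8.30% of the regions of a library but 34.1% to 49.5% of the called length and 43.6% to 59.2% of the tags in regions. In bulk chromatin, a mark on fewer cells and a weaker mark on every cell cannot be told apart.

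KO exceeded WT by 132 domains on average and 6.75 Mb of domain length, with exact permutation p = 0.583 and p = 0.556 (two-sided, 5 libraries each, labels permuted within states). The M2 minus M1 differences were -166.75 domains and -5.86 Mb, with exact permutation p = 0.571 and p = 0.714 (two-sided, 4 libraries each). Over the 12 single-value tests of this kind the smallest adjusted p was 0.686, and the design allows no p under 0.0278 for genotype and 0.0286 for state. Leaving out WT M2 replicate 1 turned the genotype difference to -74.6 domains and the state difference to 29.9 domains. Neither difference exceeded the spread between libraries.

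Length under broad domains was 117.1 and 94.2 Mb in KO M2, against 69.6 and 123.8 Mb in WT M2. It was 101.5 and 116.9 Mb in KO M1, against 97.6 and 112.1 Mb in WT M1, and 60.2 Mb in KO M0 against 53.2 Mb in WT M0. Domains of 100 kb or more numbered 177 and 126 in KO M2, 71 and 186 in WT M2, 115 and 166 in KO M1, 122 and 137 in WT M1, 59 in KO M0 and 45 in WT M0. The M0 libraries were lowest in both measures, and WT M2 replicate 1 was the lowest stimulated library. Median length was 30.8 to 33.3 kb in all 10 libraries. It was 0.592 kb longer in KO (exact permutation p = 0.194) and 0.520 kb longer in M2 than in M1 (exact permutation p = 0.40).

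**Figure D1:**
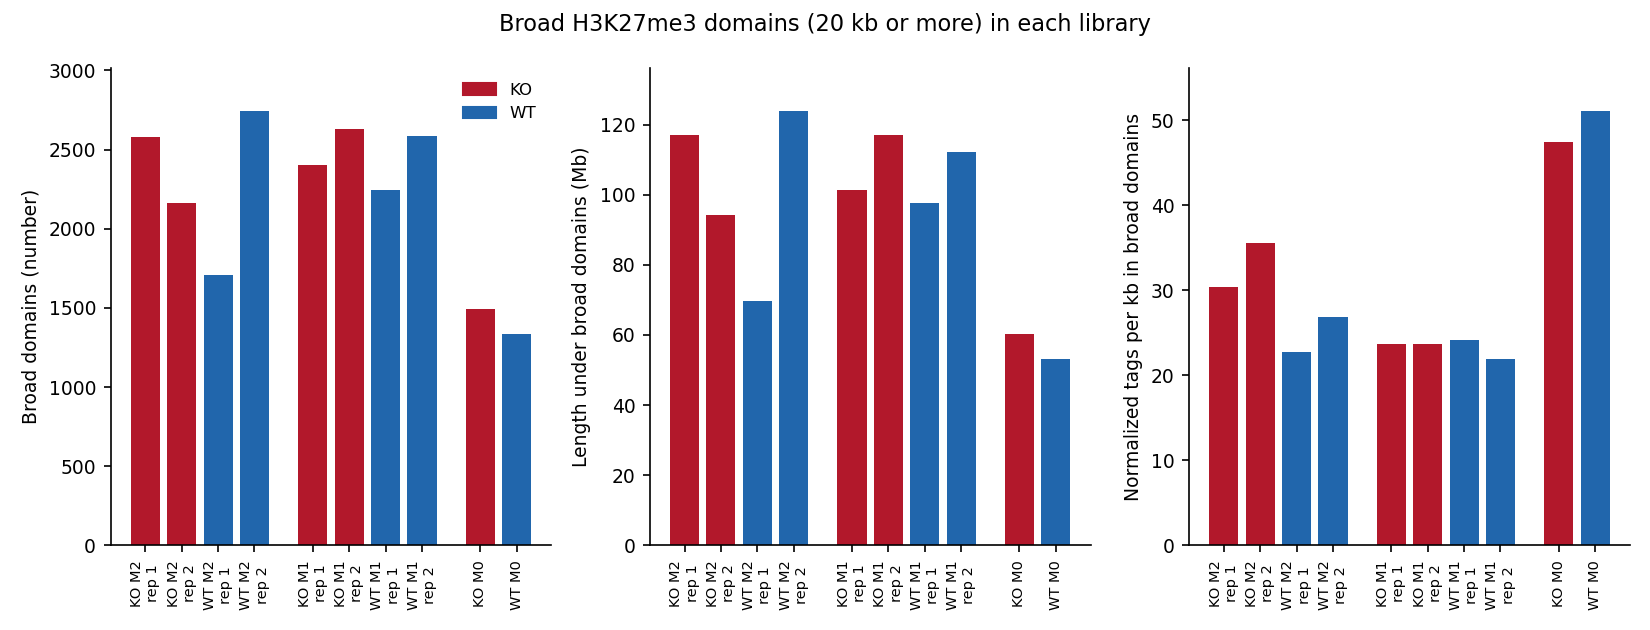
Number of broad domains, total length under them in Mb, and normalized tags per kb inside them, 1 bar per library, KO in red and WT in blue, for M2, M1 and M0 from left to right. M0 libraries have the fewest domains (1495 and 1338) and the highest tags per kb (47.4 and 51.0), and KO M2 lies above WT M2 in tags per kb.

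Tags were denser in broad domains than in shorter regions in 10 of 10 libraries, at 1.37 to 1.56 times the tags per kb. Density also rose over the size classes of 20 to 50, 50 to 100 and at least 100 kb in every library, for example 27.3, 32.2 and 34.8 normalized tags per kb in KO M2 replicate 1 and 21.4, 23.8 and 25.9 in WT M2 replicate 1. Caller and length are linked here, because a window must pass the tag threshold to extend a domain, so this is a description. In M0 the same classes held 44.6, 51.1 and 52.4 in KO and 49.9, 50.4 and 58.7 in WT.

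Broad domains of KO M2 held 30.4 and 35.6 normalized tags per kb, against 22.7 and 26.9 in WT M2. Those of KO M1 held 23.7 and 23.6, against 24.2 and 21.9 in WT M1, and those of KO M0 held 47.4, against 51.0 in WT M0. The genotypes did not overlap in M2, where KO was 8.17 higher, overlapped in M1 with a difference of 0.621, and lay the other way in M0 at -3.60. The average difference, 2.80 tags per kb, had an exact permutation p of 0.333 (5 libraries each, two-sided), and 2 libraries against 2 cannot give a p under 0.333. The share of all tags in regions moved the same way, at 61.0% and 61.3% in KO M2 and 41.3% and 56.5% in WT M2, and its part in the difference was not tested. Relative to the shorter regions of the same library, KO M2 domains held 1.54 and 1.54 times the density, against 1.38 and 1.48 times in WT M2.

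M2 domains averaged 28.9 ± 5.44 normalized tags per kb and M1 domains 23.3 ± 1.02 (SD, n = 4 each, exact permutation p = 0.114). The difference of 5.55 widened to 7.604 without WT M2 replicate 1, with exact permutation p = 0.0286, the smallest this design gives. Without WT M2 replicate 1 and WT M1 replicate 1 together it was 7.89, with exact permutation p = 0.10, again the smallest possible. With 1 library left out at a time, an exact permutation p under 0.05 was thus reached only without WT M2 replicate 1. The 22.7 tags per kb of that library lay inside the M1 range of 21.9 to 24.2.

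Broad domains of all libraries merged into 3436 loci covering 171.8 Mb. Of these, 666 (19.4%) were broad in all 10 libraries, and 630 (18.3%) in only 1. The shared loci were longer, with a median of 77.3 kb against 22.3 kb for loci broad in 1 library, and held 63.6 Mb, or 37.0% of the merged length. Length favours sharing in part by construction, because a locus is the union of its libraries' domains. They covered 2.59% of the autosomes, from 0.596% of chromosome 3 to 6.46% of chromosome 11, where the Hoxb cluster and Lhx1 lie.

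**Figure D2:**
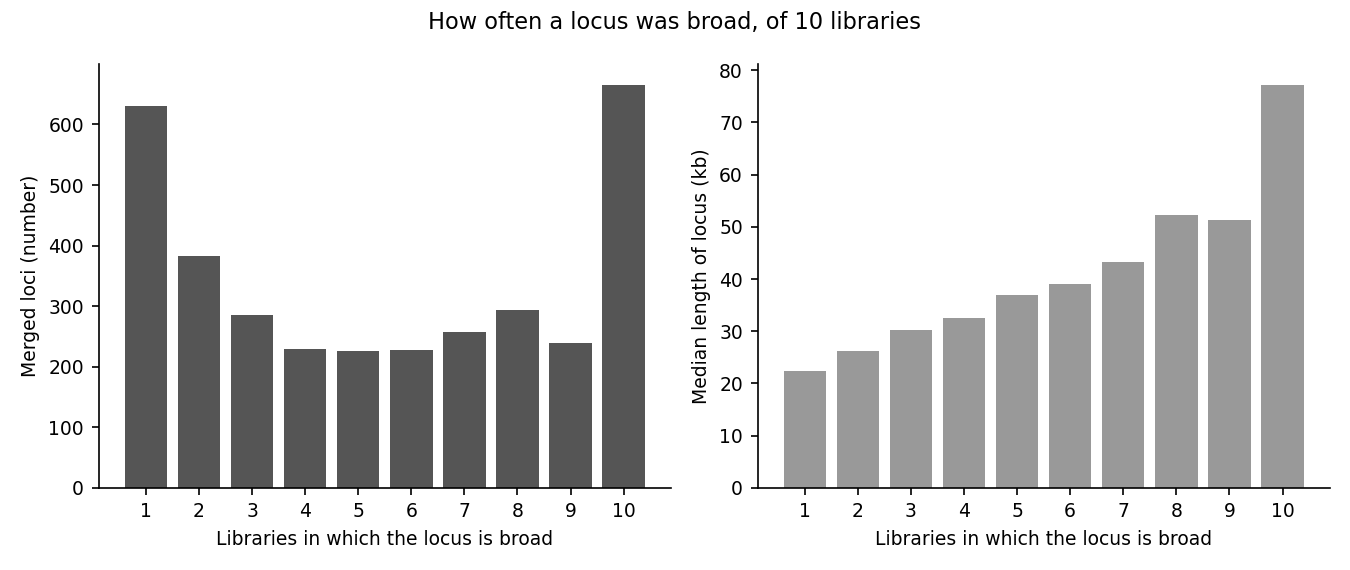
Left, number of merged loci by the number of libraries in which they are broad; right, median locus length in kb for the same classes. Loci broad in 1 library (630) and in all 10 (666) are the most numerous classes, and median length is 22.3 kb in the first and 77.3 kb in the last.

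Of the 666 shared loci, 327 were a single domain in every library and 45 were at least 200 kb long. They held 1016 protein-coding genes by at least 50% of the gene body: 136 loci held none, 277 held 1, 223 held 2 to 4 and 30 held 5 or more. A gene was counted here by its overlap with the merged locus, which not every library filled. Fewer genes, 612 over all autosomes, were at least 50% broad in each of the 10 libraries. A transcription factor of the developmental lists lay in 53 of them (7.96%). The median share of a shared locus that was broad was 95.5% and 91.4% in KO M2, 72.2% and 94.0% in WT M2, 88.1% and 94.4% in KO M1, 87.3% and 92.3% in WT M1, 75.6% in KO M0 and 72.2% in WT M0. The median share was lowest in M0 and in WT M2 replicate 1. Shared loci split into 2 or more broad domains numbered 173 in KO M0 and 179 in WT M0, and 114 to 165 in the stimulated libraries, with 152 in WT M2 replicate 1.

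The longest shared locus was the Hoxc cluster at chr15:102724226-103151436, 427 kb with 9 Hox genes, the transcription factors that pattern the body axis. Its broad share was 84.8% and 75.4% in KO M2, 97.1% and 99.2% in WT M2, 98.9% and 98.9% in KO M1, 99.3% and 99.5% in WT M1, 51.7% in KO M0 and 62.1% in WT M0. KO M2 was below WT M2 and every M1 library there, and M0 was lowest. In WT M1 replicate 2 the locus was 1 domain of 425 kb, the longest of any library, while KO M0 had 4 broad domains in it. The remaining M0 domains were dense, at 74.3 normalized tags per kb in KO M0 and 74.2 in WT M0, against 48.7 and 55.5 in KO M2, 31.0 and 41.1 in WT M2, 33.4 and 33.9 in KO M1, and 34.8 and 31.3 in WT M1.

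A locus of 303 kb at chr17:25275733-25578284 was a single domain in all 10 libraries and the longest domain of 7 of them. It runs from the tryptase genes Prss34, Prss28, Prss29, Tpsb2 and Tpsg1, serine proteases that include those of mast cells and basophils, over the calcium channel gene Cacna1h, Tekt4 and the somatostatin receptor gene Sstr5 to the transcription factor gene Sox8. Its domain was 302.3 and 301.2 kb in KO M2, 298.8 and 301.1 kb in WT M2, 299.8 and 302.1 kb in KO M1, 299.7 and 301.5 kb in WT M1, 296.3 kb in KO M0 and 292.4 kb in WT M0. Its length thus differed little between libraries, while normalized tags per kb inside it were 47.5 and 51.7 in KO M2, 26.2 and 39.2 in WT M2, 29.1 and 33.4 in KO M1, 32.9 and 28.0 in WT M1, 61.7 in KO M0 and 60.8 in WT M0.

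Lhx1, a homeobox gene of head and kidney development, was the only gene of a locus of 297 kb at chr11:84513034-84809961. That locus was 1 domain in each of the 8 stimulated libraries and 3 in each M0 library, and 95.0% or more of it was broad in all 10. Pax2, a kidney and eye factor, was the only gene of the 348 kb locus at chr19:44580795-44929236. There 91.6% to 98.5% was broad in the stimulated libraries, against 57.8% in KO M0 and 47.7% in WT M0. Spry4, an inhibitor of receptor tyrosine kinase signalling, lay in a 371 kb locus at chr18:38478198-38849466 that was 70.9% to 96.7% broad in stimulated libraries, against 40.4% in KO M0 and 46.0% in WT M0.

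Another pair among the 10 longest held immune genes beside developmental ones. The 331 kb locus at chr14:63185955-63516844 held Gata4, a factor of heart and gut development, and Blk, a kinase of B cells, with Neil2, Fam167a and Tdh. Of that locus, 97.5% and 85.9% was broad in KO M2, 90.6% and 96.9% in WT M2, 96.2% to 99.2% in M1, 53.9% in KO M0 and 52.5% in WT M0. The 320 kb locus at chr4:135494724-135814863 held Grhl3, an epidermal factor, and the cytokine receptor genes Ifnlr1 and Il22ra1, with Stpg1 and Myom3. It was 93.8% and 93.3% broad in KO M2, 30.8% and 87.8% in WT M2, 64.3% and 80.9% in KO M1, 70.9% and 78.1% in WT M1, 49.0% in KO M0 and 59.5% in WT M0. KO M2 was the highest group at that locus, and WT M2 replicate 1 the lowest library.

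The other 3 of the 10 longest carried neural genes. Neurog1, a factor of neuron formation, shared 293 kb at chr13:56197789-56491269 with the chemokine gene Cxcl14, Slc25a48 and the cytokine gene Il9. Otof, which is needed for hearing, and the potassium channel gene Kcnk3 lay in 299 kb at chr5:30339687-30638636, and the axonal genes Cntn2 and Nfasc in 282 kb at chr1:132511052-132792640. The Neurog1 locus was 89.8% and 94.1% broad in KO M2, 56.6% and 99.2% in WT M2, 65.5% and 66.5% in KO M1, 73.9% and 51.2% in WT M1, 79.6% in KO M0 and 64.4% in WT M0. WT M2 replicate 2 was the highest library there and WT M1 replicate 2 the lowest.

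The next question was which protein-coding genes the domains covered. A gene was counted when at least 50% of its body lay in broad domains, which held for 1888 and 1629 genes in KO M2, 1068 and 1872 in WT M2, 1567 and 1819 in KO M1, 1526 and 1667 in WT M1, 1176 in KO M0 and 1075 in WT M0. KO exceeded WT by 174.2 genes (exact permutation p = 0.306, 5 libraries each), and the M2 minus M1 difference was -30.5 genes (exact permutation p = 0.971, n = 4 each). Neither difference exceeded the spread between libraries. Of 20665 autosomal genes, 612 (2.96%) were covered in all 10 libraries and 18182 in none, and the gene lists below are read beside that 2.96%.

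Of 39 Hox genes, 29 to 36 were inside broad domains per library and 28 (71.8%) in all 10, among them Hoxd3, Hoxc4, Hoxc6 and Hoxd10. Of 60 homeobox and paired-box factors outside the Hox clusters, 28 were broad in all 10, among them Lhx4, Alx4, Lhx2 and Pax6. Of 53 Sox, T-box, forkhead, GATA and basic helix-loop-helix factors, 22 were, among them Gata4, Gata3, Tbx4 and Tbx3, which act in heart, lymphoid and limb development. Of 39 morphogens, receptors and antagonists, 12 were, among them the Wnt ligand genes Wnt9b, Wnt3, Wnt3a and Wnt11. All 4 lists had fewer members broad in M0 than in most stimulated libraries, as did all protein-coding genes, with 1176 and 1075 in KO and WT M0 and 1068 to 1888 in stimulated libraries. The homeobox list outside Hox had 41 to 44 in M2 and 43 to 48 in M1, against 30 to 32 in M0. The Sox to helix-loop-helix list had 32 to 40 in M2 and 36 to 40 in M1, against 23 to 25 in M0.

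Not every silent gene family was broad. None of the 57 clustered protocadherins, adhesion genes of neurons, was broad in any library. Of 1104 olfactory receptor genes, 13 to 22 were broad in M2, 22 to 31 in M1 and 0 to 2 in M0, and none in all 10. Of 53 keratin genes, 9 to 22 were broad in M2, 9 to 20 in M1 and 12 to 13 in M0, and 5 in all 10, among them Krt79, Krt90, Krt75 and Krt82. Genes of families with near-identical copies share reads, so a count over such a family is uncertain.

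Genes of macrophage identity and of general cell function lay outside. None of 24 macrophage identity genes, such as Csf1r, Adgre1 and Cx3cr1, and none of 18 housekeeping genes was broad in any library. Of 38 LPS and interferon genes, 1 to 2 were broad in M2, 0 to 1 in M1 and 2 in each M0 library, and 34 were broad in none; the 4 others were Slamf1, Nos2, Ciita and Socs1. Of 40 IL-4 genes, 3 to 4 were broad in M2, 4 to 6 in M1 and 4 to 6 in M0, and the eosinophil chemokine gene Ccl24 in all 10. Of 25 genes of the PERK pathway and serine synthesis, Fgf21 alone was broad, in some libraries. Of 21 genes for writers, readers and erasers of H3K27 methylation, 0 to 1 were broad in M2, 0 to 1 in M1 and 2 to 3 in M0, among them Cbx2 and Cbx8, which encode readers of the mark.

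Genes of other blood and tissue cells were broad in small numbers. Of 24 T and B cell genes, 2 to 4 were broad per library and Gata3 in all 10. Of 18 granulocyte and erythroid genes 0 to 2 were broad, and of 20 stromal and epithelial genes 2 to 4, with Col1a1 (collagen I) and Des (desmin) in all 10. Among the cell type markers, 1 to 3 of 7 for T and NK cells, 1 to 2 of 6 for stromal cells and 0 to 1 of 3 measured for erythroid cells were broad, and none for B cells or granulocytes. Cover of a gene by H3K27me3 gives no amount of another cell type in the culture, and the part of other cells in these counts was not tested.

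**Figure D3:**
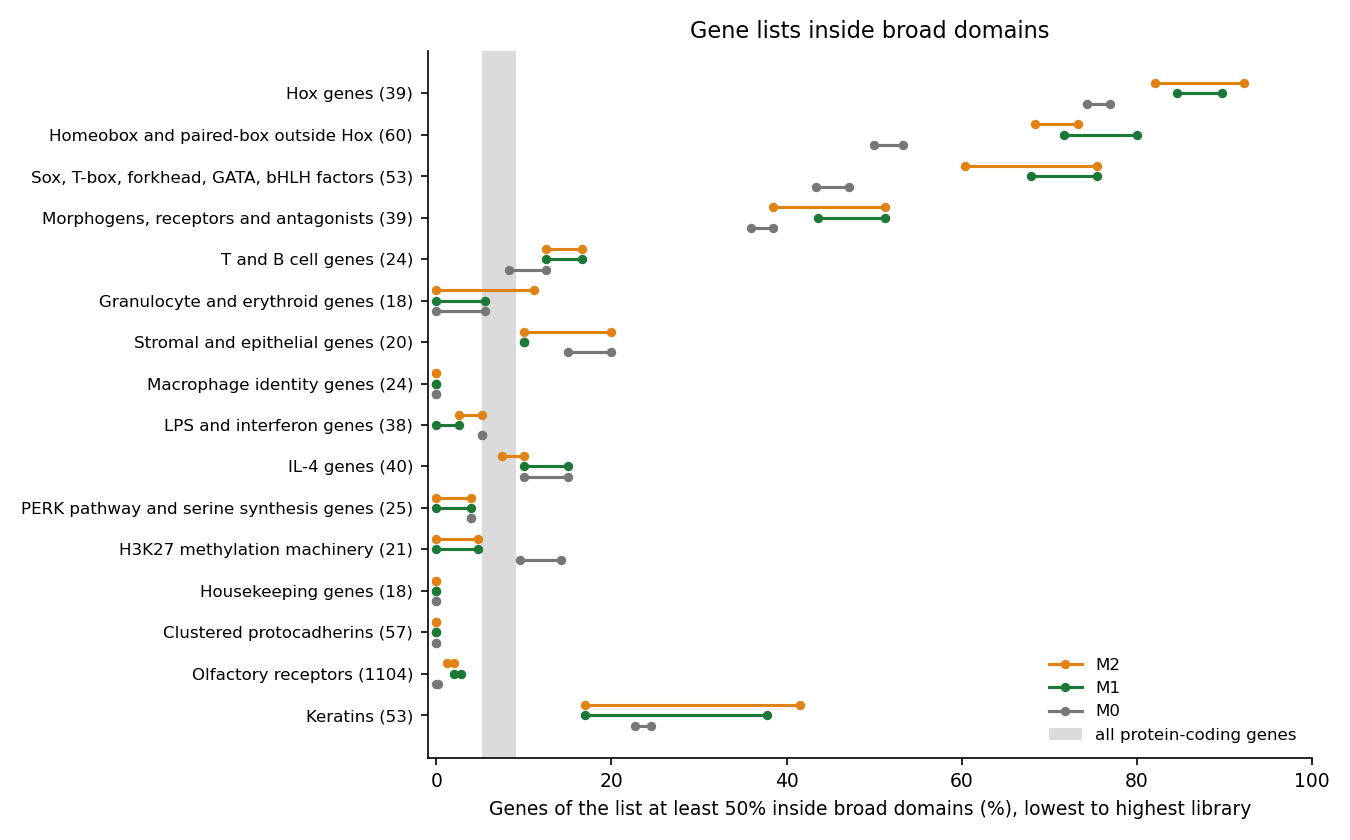
Percentage of each gene list at least 50% inside broad domains, as a line from the lowest to the highest library of M2 (orange), M1 (green) and M0 (grey), with the number of genes in brackets and the range over all protein-coding genes as a grey band. Hox and other developmental lists lie far to the right of the band, with 28 of 39 Hox genes broad in all 10 libraries, while macrophage identity and housekeeping genes lie at 0.

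The comparison of M2 with M1 asked which domains depended on the activation state. Sharing between 2 libraries was measured by the Jaccard index, the shared length of their broad domains divided by the joint length. It averaged 0.584 over the 6 pairs within M2, 0.683 over the 6 within M1 and 0.604 over the 16 pairs of an M2 with an M1 library. Same-state pairs exceeded M2-with-M1 pairs by 0.0294 (exact permutation p = 0.114, 8 libraries). WT M2 replicate 1 shared on average 0.523 with the other stimulated libraries, and without it the pairs within M2 averaged 0.688 and the difference was 0.0648, with exact permutation p = 0.0286, the smallest this design gives. Leaving out WT M2 replicate 2 gave 0.0567, with the same exact permutation p of 0.0286. Leaving out an M1 library gave smaller differences, down to 0.00359 without WT M1 replicate 2 (exact permutation p = 0.80) and 0.00620 without KO M1 replicate 1 (exact permutation p = 0.886). It was 0.0151 without KO M1 replicate 2 (exact permutation p = 0.571). Same-genotype pairs exceeded different-genotype pairs of one state by 0.00984 (exact permutation p = 0.778, 8 libraries).

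**Figure D4:**
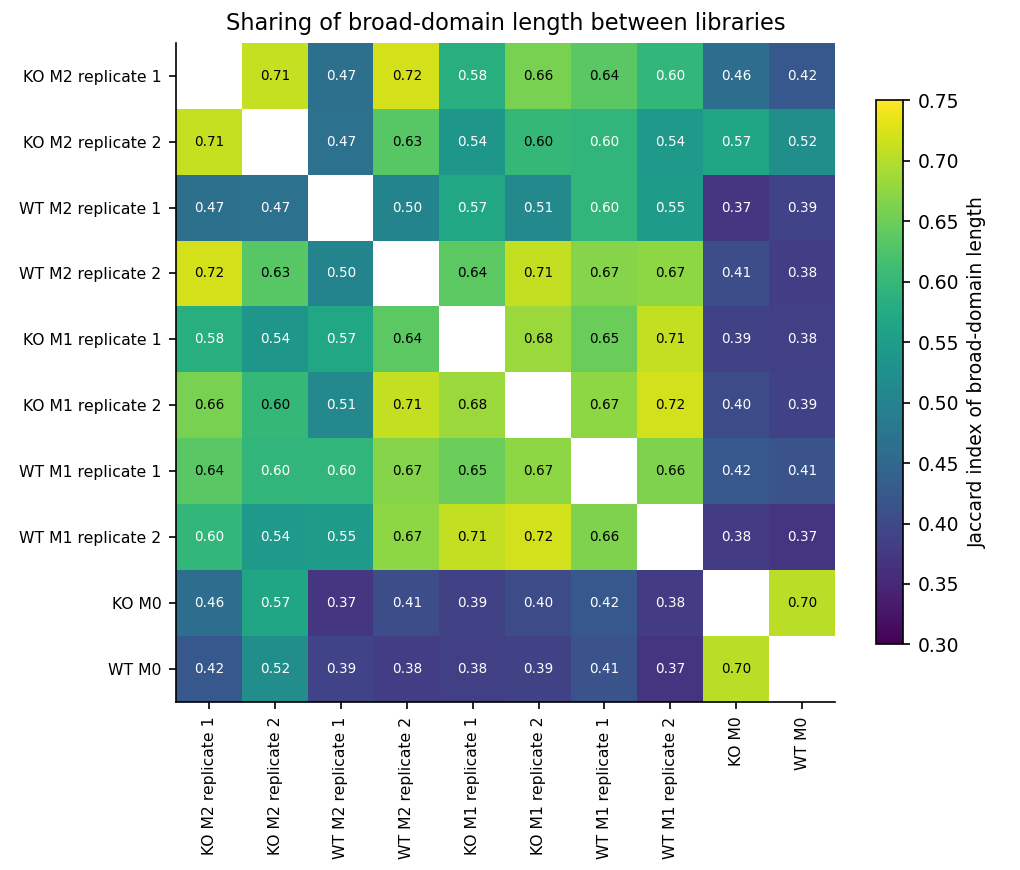
Jaccard index of broad-domain length for each pair of the 10 libraries, from 0.30 (dark) to 0.75 (bright), with the diagonal left blank. M0 pairs with stimulated libraries are dark, brightest for KO M2 (mean 0.494), and the row of WT M2 replicate 1 is darker than the other stimulated rows (mean 0.523).

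Nos2, the gene of inducible nitric oxide synthase, an enzyme of LPS and interferon activated macrophages, lay in a broad domain in all 4 M2 and both M0 libraries and in no M1 library. Its locus at chr11:78921573-78958163 held 37.6, 42.6, 17.98 and 33.0 normalized tags per kb in M2 (KO, KO, WT, WT), against 1.24, 1.99, 0.877 and 0 in M1, and 46.8 and 46.2 in KO and WT M0. Sequence outside called regions counted as 0 tags, and only 7.74%, 14.0%, 5.73% and 0% of the Nos2 body was called in M1 (KO, KO, WT, WT). The M1 values are therefore at a floor and not a measure of all tags there. The groups did not overlap, and the lowest M2 library was WT M2 replicate 1. The difference was 4.10 (SE 0.506) on the log2(tags per kb + 1) scale, with an adjusted p of 0.000799 by limma over 14993 loci. With a pseudocount of 5 the difference was 2.61, so its size depended on that floor. This locus entered the set because M2 and M0 libraries were broad there, so its level is not independent of that choice. Over 15 alternatives the adjusted p ran from 6.01e-13 to 0.252 and was under 0.05 in 11, and it was not under 0.05 with no filter on low values or without KO M2 replicate 1, KO M2 replicate 2 or WT M2 replicate 2.

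Adora2a encodes an adenosine receptor that restrains inflammatory signalling. It was covered by broad domains in all 4 M2 libraries and in no M1 or M0 library. Its locus at chr10:75313427-75345461 held 42.5, 53.1, 22.5 and 37.1 normalized tags per kb in M2 (KO, KO, WT, WT), against 11.95, 16.0, 12.1 and 14.7 in M1, and 45.5 and 44.0 in KO and WT M0. M0 was thus as high in tags as M2 although its regions there were shorter than 20 kb. The difference of M2 from M1 was 1.39 (SE 0.201) on the log2 scale with an adjusted p of 0.00511 by limma. This locus entered the set through the M2 libraries alone, so its level is not independent of that choice. Over 15 alternatives its adjusted p ran from 1.47e-06 to 0.461 and was under 0.05 in 8; the difference stayed between 1.12 and 1.56.

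Nos2 and Adora2a were the only 2 of 3416 broad loci tested for M2 against M1 that passed an adjusted p of 0.05, both higher in M2. Over all 14993 loci, 4 passed, all higher in M2 (0.0267%), so the share was small in and outside broad loci. Of the 3416 broad loci, 593 had an unadjusted p under 0.05 by limma, and of all 14993 loci 2291 did. The median log2 difference was 0.18 over broad loci and 0.12 over all loci, and quantile normalization of the libraries, which removes such a common shift, took them to -0.04 and 0.0057. The median over broad loci turned to -0.0078 without WT M2 replicate 2. Without WT M2 replicate 1, 1177 broad loci passed, 1159 higher and 18 lower in M2, where 15.8% and 0.760% of all loci did, with medians of 0.37 over broad and 0.37 over all loci. In that setting the median shift was the same over all loci as over broad ones to 2 decimals.

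In the other direction, the loci with the smallest p lay in the type I interferon cluster of chromosome 4, whose genes encode antiviral cytokines. Of 18 genes of the cluster, 13 and 12 were broad in KO M1 and 11 and 14 in WT M1, against 6 and 3 in KO M2, 7 and 11 in WT M2 and 0 in each M0 library. At the same time 13 to 15 of the 18 lay in called regions of any length in each of the 10 libraries. M0 libraries thus had the cluster marked in short regions and M1 libraries in long ones. The gene Ifnb1, at the edge of the cluster, had its start site in no called region of any library.

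The locus of Ifna9 and Ifna12 at chr4:88587781-88615494 had the third smallest p of all broad loci. It held 8.74, 5.33, 14.2 and 15.8 normalized tags per kb in M2 (KO, KO, WT, WT), against 24.0, 25.5, 19.6 and 28.4 in M1, and 4.15 and 2.44 in KO and WT M0. M2 and M1 did not overlap, and M0 was below both. The difference was -1.17 (SE 0.228) with an adjusted p of 0.0618 by limma, short of the threshold. The locus was broad in every M1 library and in WT M2 replicate 2, so its level is not independent of that choice. With a pseudocount of 5, 54 broad loci passed, 50 higher and 4 lower in M2, where 2.05% and 0.247% of all loci did. Under quantile normalization 21 broad loci passed for M2 against M1, 3 higher and 18 lower, where 0.113% and 0.193% of all loci were called in those directions. Of the 18 lower loci, 5 were in this cluster: Ifna9 with Ifna12 (adjusted p = 0.00686 by limma), Ifna16 with Ifna2 (0.0224), the locus of Ifna4 and Ifna5 (0.0284), and the loci of Ifna13 and of Ifna14 with Ifna15 (0.0437 each). The locus of Ifna14 with Ifna15 was broad in WT M1 replicate 2 alone, and that of Ifna13 in every M1 library and in both WT M2 libraries. The levels of these loci are therefore not independent of that choice either, and the 5 neighbouring loci are not 5 separate results. Over 14 alternatives the adjusted p of the Ifna9 locus ran from 0.00277 to 0.745 and was under 0.05 in 4. The Ifna genes are near-identical copies, and how reads that match several copies were placed is not given in the sources used here.

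**Figure D5:**
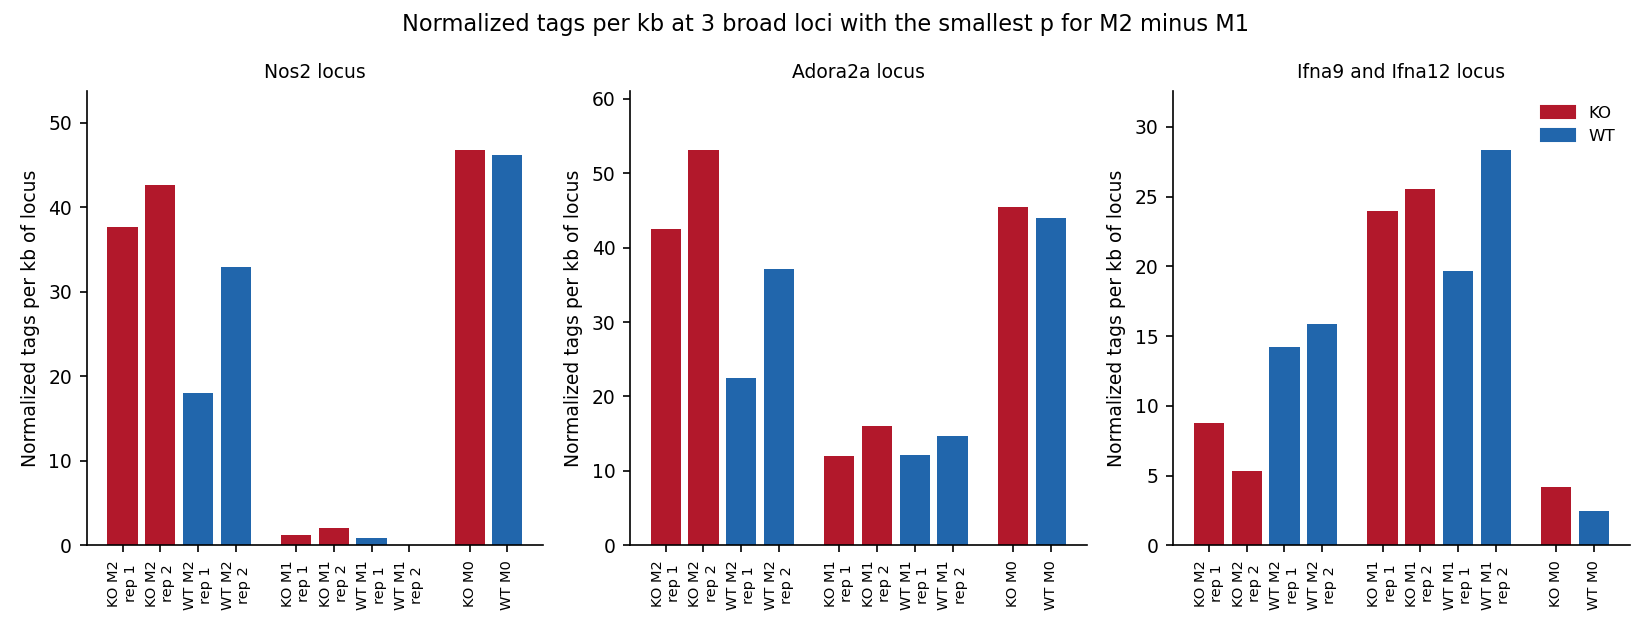
Normalized tags per kb at the loci of Nos2, Adora2a, and Ifna9 with Ifna12, 1 bar per library, KO in red and WT in blue, for M2, M1 and M0 from left to right. Nos2 and Adora2a are high in M2 and M0 and low in M1, and the interferon locus is high in M1 (19.6 to 28.4), lower in M2 and lowest in M0.

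Counted by genes, 4 of the 2431 covered in any stimulated library were broad in all 4 M2 and no M1 library (0.165%), and 8 were broad in all 4 M1 and no M2 library (0.329%). The first were Nos2, Adora2a, and the kallikrein genes Klk1 and Klk1b5, which are neighbours and near copies of each other. Klk1 was also 100% inside called regions in every M1 library, and 55.0% to 62.7% of Adora2a was, so these genes were not free of the mark in M1. The second were Zswim5, Gucy1b2, Gm19410, Cadm3, Vsx1, Erv3, Sost and Cldn23. Sost, the gene of the Wnt antagonist sclerostin, and Cldn23, a claudin gene, were 100% inside called regions in every M2 library too, so there the domain was shorter and not absent. Zswim5 had 77.6%, 76.6%, 52.6% and 77.3% of its body broad in M1 (KO, KO, WT, WT), and 23.4%, 23.4%, 26.97% and 49.0% in M2.

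Read in bins of 1 kb, most broad sequence kept some call in the other state. Of the 169488 bins that were broad in any stimulated library, 202 (0.119%) were called, in regions of any length, in all M2 and no M1 libraries, and 341 (0.201%) in all M1 and no M2 libraries. Over all called bins these shares were 0.151% and 0.294%, and the shares of broad bins lay below them, a difference that was not tested. The counts were 1334 and 813 without WT M2 replicate 1, a setting in which the rule is easier to meet and for which no share over all bins is given. Of the sequence broad in an M2 library, on average 79.0% was broad, 13.2% in shorter regions and 7.76% uncalled in an M1 library. Of the sequence broad in an M1 library, on average 73.6% was broad, 16.6% in shorter regions and 9.74% uncalled in an M2 library.

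M0 libraries showed another relation to the stimulated ones. Of the sequence broad in an M0 library, on average 84.9% was broad in an M2 library and 81.7% in an M1 library. Of the sequence broad in an M2 library, 48.3% was broad in an M0 library, 29.5% lay in shorter M0 regions and 22.2% was uncalled there. Of the 171842 bins broad in any library, 46843 were broad in both M0 libraries, and 671 of these in no stimulated one. All 8 stimulated libraries were broad in 47158 bins, and 11139 of these were broad in no M0 library. M0 broad sequence was thus largely contained in that of the stimulated libraries. The 2 M0 libraries had 53.2 and 60.2 Mb under broad domains and the 8 stimulated ones 69.6 to 123.8 Mb, so the 2 directions are not on an equal footing. The fragment length and the share of tags in regions differ between M0 and the rest, and their part in this was not tested.

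The comparison of KO with WT asked whether loss of PERK moved the domains. No broad locus of 3416 and none of the 14993 loci passed an adjusted p of 0.05 by limma over the 8 stimulated libraries, so percent called was 0 in both. At an unadjusted p under 0.05 by limma there were 487 of the 3416 broad loci and 1708 of all 14993 loci. The median log2 difference of KO from WT was 0.26 over broad loci and 0.28 over all loci, and -0.02 and -0.0052 after quantile normalization. They were 0.08 and 0.07 without WT M2 replicate 1. When WT M2 replicate 2 was left out, 1654 broad loci passed, 1643 higher and 11 lower in KO, where 29.3% and 0.340% of all loci did, with medians of 0.43 over broad loci and 0.49 over all loci. That setting leaves WT M2 replicate 1 as the only WT M2 library.

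The smallest genotype p-values were at P4ha2, Ksr1, Arhgef17, Adgrf3 and Nfatc2, each with an adjusted p of 0.433 by limma. The locus of P4ha2, which encodes a subunit of collagen prolyl hydroxylase, held 20.6 and 20.3 normalized tags per kb in KO M2, against 3.20 and 12.004 in WT M2, and 16.9 and 15.7 in KO M1, against 9.17 and 11.5 in WT M1. The locus of Adgrf3, an adhesion receptor gene, held 11.5 and 11.2 in KO M2, against 19.0 and 19.9 in WT M2, and 13.5 and 11.8 in KO M1, against 24.5 and 17.1 in WT M1. Both were separated by genotype in each state without passing the test, at log2 differences of 1.08 (SE 0.313) and -0.69 (SE 0.220). The P4ha2 locus was broad in all 5 KO libraries and in no WT library. The Adgrf3 locus was broad in every stimulated WT library and, among KO libraries, in KO M1 replicate 1 alone. Each entered the set mainly through the genotype where it was higher and was named for its small p. Their separation is therefore not independent of that choice.

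Within M2 the median difference between genotypes was larger than within M1, and it depended on 1 library. The median log2 difference of KO from WT was 0.46 over broad loci and 0.50 over all loci within M2, against 0.08 and 0.10 within M1. Leaving out WT M2 replicate 1 took the medians within M2 to 0.10 and 0.05, so they rested on that library, and quantile normalization took them to -0.03 and 0.02. No broad locus of 3416 passed within M2, where 1010 had an unadjusted p under 0.05, and none passed within M1, where 3 did (limma). Over all 14993 loci these counts were 3041 within M2 and 273 within M1, so both kinds of loci differed between the states in this way. The smallest p within M2 was at Arhgef17, a guanine nucleotide exchange factor gene, with 37.3 and 52.6 normalized tags per kb in KO M2, against 13.5 and 27.6 in WT M2, and an adjusted p of 0.192. Evpl, Jag2, Kcnn1 and Lama5 had the same adjusted p of 0.192 and log2 differences of 1.03 to 1.23. With the replicate number as a block, 104 broad loci passed within M2, 103 higher and 1 lower in KO, where 2.27% and 0.127% of all loci did. When WT M2 replicate 2 was left out 2060 did, 2026 higher and 34 lower in KO, where 37.5% and 0.934% of all loci passed.

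Loci that were broad in all 10 libraries did not enter the set through 1 group. Their edges were still set by the widest domains, and uncalled sequence inside a locus counted as 0 tags. The median share of such a locus that was broad was 95.5% and 91.4% in KO M2, against 72.2% and 94.0% in WT M2. The median log2 difference over these loci was 0.58 for KO against WT within M2 and 0.30 for M2 against M1. For loci broad in 1 library the medians were 0.36 and 0.08. Both were positive as for all loci, and the order of these classes was not tested.

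By genes, 105 of the 2212 covered in any M2 library were broad in both KO M2 libraries but in neither WT M2 library (4.75%), and 44 in both WT M2 libraries but in neither KO M2 library (1.99%). Long genes among the first were Rbfox3, Gse1, Tns1, Rec114, Macrod1, Tdrd9 and Cpne5. Among list members they held the homeobox gene Msx1, Fzd9, Flt4, Cbx8, Wnt7b and Krt81. Rbfox3, the gene of the neuronal protein NeuN, had 62.6% and 62.5% of its body broad in KO M2, against 22.6% and 38.3% in WT M2. Cpne5 had 97.5% and 96.0% in KO M2, against 0% and 35.5% in WT M2, and 84.4% and 69.4% in KO and WT M0. The 44 of the other direction included the longest genes Syn2, Cpeb1, Gm884, Plpp3, Tecta, Smc1b, C2cd4b and Rgma, and the developmental factor genes Foxd3, Pou4f2, Twist1 and Foxq1. Cpeb1 had 45.9% and 6.84% broad in KO M2, against 71.6% and 66.8% in WT M2. Some genes of both sets lay near the 50% limit of the count. Gse1 had 57.1% and 59.6% in KO M2, against 8.85% and 49.8% in WT M2. Plpp3 had 48.7% and 43.6% in KO M2, against 72.5% and 87.2% in WT M2.

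These 2 sets differed in where else they were broad. Of the 105 broad in KO M2 alone within M2, 35 (33.3%) were broad in both M0 libraries and 7 (6.67%) in all 4 M1 libraries. Of the 44 of the other direction, 0 were broad in both M0 libraries and 29 (65.9%) in all 4 M1 libraries. Among the 2212 genes broad in any M2 library, 43.0% were broad in both M0 libraries and 54.8% in all M1 libraries. Without WT M2 replicate 1, 106 genes were broad in both KO M2 libraries and not in WT M2 replicate 2, 36 of them in both M0 libraries, and 191 were broad in WT M2 replicate 2 and in no KO M2 library, 1 of them in both M0 libraries. The first count was 622 without WT M2 replicate 2. Each of these left-out settings keeps 1 WT M2 library, so its rule is easier to meet for every gene. The difference between the sets was not tested.

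Broad-domain sharing with M0 had the same order. KO M2 libraries shared a mean Jaccard index of 0.494 with the M0 libraries (0.423 to 0.567 over 4 pairs), WT M2 libraries 0.387 (0.371 to 0.406), KO M1 libraries 0.391 and WT M1 libraries 0.397. The KO M2 values lay above those of WT M2 and KO M1 without overlap, and overlapped with those of WT M1, which reached 0.424. Which libraries these averages share was the same for each group, and the differences were not tested. Of the 171842 bins broad in any library, 877 were broad in both M0 and both KO M2 libraries and in no other. The count was 0 for both M0 and both WT M2 libraries and no other. That count needs a bin to be broad in WT M2 replicate 1, which had the fewest broad domains of the stimulated libraries, and no count without it is given. KO M2 libraries also had the highest share of tags in regions among stimulated libraries, 61.0% and 61.3%, close to the 64.1% and 62.6% of KO and WT M0, and its part in the sharing was not tested.

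In bins of 1 kb, 2980 of the 147641 that were broad in any M2 library were called in each KO M2 library but in neither WT M2 library (2.02%), and 3326 in each WT M2 library but in neither KO M2 library (2.25%). Over all bins called in M2 these shares were 4.18% and 3.58%, above those of broad bins in both directions, a difference that was not tested. The first count was 22632 without WT M2 replicate 2, and without KO M2 replicate 1 the second was 9310. With the upper 50% of regions by score they were 7071 and 8297. Leaving out a library makes an all-or-none rule easier to meet for every bin. No share over all bins is given for these settings, so their counts are not read as a result about broad bins.

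The regions that the authors' deposited tables list as enriched in KO or WT lay mostly outside broad domains. The authors' deposited false discovery rate was 0.105 to 0.147 for the M2 regions with the smallest p inside broad domains. It was 0.99985 for the M1 regions inside them, so none of these is an established genotype difference. In the authors' deposited table of M2 regions enriched in KO, 73 of 1049 (6.96%) had their midpoint in a broad domain of at least 1 M2 library and 14 in all 4. In the authors' deposited table of M2 regions enriched in WT, 16 of 185 (8.65%) lay in a broad domain of at least 1 M2 library. In the authors' deposited tables for M1, 5 of 93 regions enriched in KO and 2 of 49 enriched in WT lay in a broad domain of at least 1 M1 library. By length, 47.4% of the bins called in an M2 library and 45.8% of those called in an M1 library were broad in at least 1 library of that state. By number, broad domains were only 5.96% to 8.30% of the regions of an M2 library and 6.98% to 7.99% of those of an M1 library. The authors' regions were counted by number and by midpoint, so the shares of bins are no like measure. Whether these regions were fewer in broad domains than other regions was not tested. Which libraries and which scaling the authors used for them is not stated in the sources used here.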

How the data were processed

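H3K27me3 libraries were aligned to mm10 with Bowtie2 2.4.2, per the submitters' processing notes, which also name SAMtools 1.10, deepTools 3.5.1, HOMER 4.8 and DiffBind 2.0.2. Per the file headers, regions were called in each library with HOMER findPeaks in region mode (window 1000 bp, joined within 2500 bp, FDR 0.001) and without an input library. The deposited Normalized Tag Count is a signal scaled by the authors to 10 megatags, the deposited findPeaks score ranks regions within a library, and region size is the other deposited column used. The authors' deposited comparison tables give log2 fold, p-values and false discovery rates. Placement of reads that match several places is not given in the sources used here.

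Domain density is the sum of tags over the sum of length. Genes and promoters came from RefSeq tables of GRCm38.p6. Broad domains of all libraries were merged into loci, and tags were shared out by overlap. Loci broad in few libraries were placed by those libraries, so their tags are not independent of the choice. The 14993 loci with a mean of at least 5 tags per kb were tested with limma 3.58.1 (trend, 4 group means, 8 stimulated libraries) on log2(tags per kb + 1), with Benjamini-Hochberg adjustment. Single values were tested by exact two-sided permutation, with state kept for genotype. Interval sums, the genotype permutation and the limma contrast of KO with WT were tested on simulated data. For KO against WT, limma found 200 of 200 loci shifted by 2 on the log2 scale among 14993 loci. The simulated noise was independent between libraries, with an SD of 0.25. The P4ha2 locus differed by 1.08, so this check does not tell whether differences of that size would be found. Named loci are the 5 broad loci with the smallest p per contrast; named genes are those covered in every library of a group and in no library of its counterpart, the longest 8 where there were more, and up to 4 per list. Some genes that this rule names are not reported here. Interferon loci beyond these were chosen after their values were seen. The members and lists were chosen with earlier results of these data known. Python 3.11.15 with numpy 2.4.6, pandas 2.3.3 and scipy 1.17.1 and R 4.3.3 were used. The replicate numbers were checked for pairing, and alternatives covered the size threshold, joining, score, cover, pseudocount, filter, scaling and left-out libraries.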

Additional observations from a re-analysis of the deposited data

Results flagged for a closer look

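The median length of broad domains in WT M2 replicate 1 was 31.2 kb, far below the other 3 M2 libraries (32.988 to 33.264 kb), with a gap of 0.864 of the range of the 4. Broad domains of WT M0 held 51.0 normalized tags per kb, far above the other 4 WT libraries, with a gap of 0.828 of the range of the 5; these 5 libraries cover 3 states. Chance marks about 1 in 20 groups in this way. On the X chromosome, which no comparison used, WT M2 replicate 1 had 544 broad domains and WT M1 replicate 1 had 216, against 1 to 4 in the other 8 libraries. Their part in the autosomal values of these libraries was not tested.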

How the results depend on the processing

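With a size threshold of 15 or 30 kb the median-length difference of M2 from M1 turned to -0.0351 and -0.00613 kb. Joining regions across 5 kb turned the gene difference of M2 from M1 to 36.25. Without WT M2 replicate 1 and WT M1 replicate 1, KO minus WT turned to -142.8 domains, -6.99 Mb and -14.8 genes, and M2 minus M1 to 1.52 Mb and 112 genes. With the upper 50% of regions by score, all-or-none broad bins numbered 637 (all M2, no M1), 523 (reverse), 7071 (both KO M2, no WT M2) and 8297 (reverse). For M2 against M1, 54 broad loci passed with a pseudocount of 5, 0 with no filter, 21 with quantile normalization and 912 without the same pair of WT libraries; within M2, 7 passed for KO against WT with a pseudocount of 5. No share over all bins or loci is given here for the bins by score, the 912 loci or the 7 loci. These counts are therefore not read as a result about broad domains. The cause was not tested.

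With 1 library left out at a time, KO minus WT ran from -74.6 to 338.6 domains, -4.09 to 17.6 Mb, 13.4 to 335 genes, 0.227 to 0.958 kb of median length and 1.76 to 4.39 tags per kb. M2 minus M1 ran from -314 to 29.9 domains, -13.4 to 4.67 Mb, -122 to 152 genes, 0.310 to 0.988 kb and 3.32 to 7.604 tags per kb. Sharing differences ran from 0.00359 to 0.0648 by state and -0.0400 to 0.0710 by genotype. Bins ran from 196 to 1334 (all M2, no M1), 367 to 886 (reverse), 2925 to 22632 (both KO M2, no WT M2) and 3278 to 9310 (reverse). An all-or-none rule is easier to meet with a library left out, and no share over all bins is given for these settings. Broad loci passing by limma ran from 0 to 1654 for KO against WT, 0 to 1177 for M2 against M1 and 0 to 2060 within M2, and were 0 within M1 throughout.

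Replicate numbers paired the same genotype across states only weakly (r = 0.113 in KO, 0.116 in WT) and not the genotypes (0.0263 in M2, -0.0796 in M1), with 2 numbers each. With the replicate block the tags per kb differences had exact permutation p = 0.375 (KO minus WT) and 0.25 (M2 minus M1), and 0, 2 and 104 broad loci passed for KO against WT, M2 against M1 and KO against WT within M2.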
